A study of Rattus norvegicus with 2 samples.

Results

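The genes described here handle iron and heme in the liver: Hamp, Tf, Tfrc, Tfr2, Slc40a1, Fth1, Ftl1, Cp, Hmox1 and Hpx. They were chosen by name, as every gene probe of the array whose gene name equals a member. All 10 had a probe, with 21 probes in all, and all 21 passed the filter on dim probes, among 18196 genes tested. The samples were livers of 7-week-old Wistar rats (spelled Wister in the labels) on a choline-deficient diet or on a control diet, each fed for 10 days. Total RNA of both diets was hybridised together to dual-colour oligonucleotide arrays, with choline-deficient RNA in Cy5 and control RNA in Cy3 on array 1, and the dyes swapped on array 2. The title of each of the samples names 4 rats on the deficient diet. Whether an array held other animals than its partner, a pool, or the same extracts with dyes exchanged is not stated. The p-values below therefore cover only spread between the 2 arrays, and that spread may be technical. The test takes it mostly from all genes together and little from each gene alone. Sex and how animals were assigned to arrays are not given in the sources used here.

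The liver senses body iron and sets how much of it enters the blood. Hepcidin, the peptide encoded by Hamp, is secreted by hepatocytes and closes the iron exporter ferroportin, encoded by Slc40a1. Transferrin (Tf) carries iron in plasma, its receptors take it up or sense it, ferritin (Fth1 and Ftl1) stores it, and haemopexin (Hpx) and heme oxygenase (Hmox1) bind and break down heme. Several of these transcripts are controlled after transcription by iron regulatory proteins, so the level of the mRNA and that of the protein can differ.

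Ceruloplasmin (Cp), the copper-containing ferroxidase of plasma that loads iron onto transferrin, fell in choline-deficient liver, to 0.749 times its control level, and was the member that passed limma's test in that direction. No member rose. The light chain of ferritin, Ftl1, was higher on array 1 in all 5 of its probes, and 3 of them passed when each probe was tested apart, although its brightest probe did not. Hamp, Tf, Tfrc, Slc40a1, Hmox1, Hpx and the brightest Ftl1 probe had opposite signs on the arrays. Thus 1 of 10 members was called, against 8.62% of all genes tested in either direction 4.25% called lower and 4.37% called higher, a count of members close to the background share. The median log2 ratio of choline-deficient over control was -0.02 for the members and 0.00 for all genes tested.

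The sequences that carry the results on Cp and ferritin are the probes themselves, printed from the array files, 5′ to 3′, with positions on the rat build rn4. Cp had 3 bright probes at different places of the gene and a dim one without a mapped position. In the first 2 lines below, capitals mark the 20 bases that the neighbouring probes share, which lie at chr2:105129630-105129689 and chr2:105129670-105129729, and those probes are therefore not independent of each other. The third lies at chr2:105118525-105118581, a span of 57 bases for a 60-base probe, and the last is the unmapped probe.
Cp A_44_P404836: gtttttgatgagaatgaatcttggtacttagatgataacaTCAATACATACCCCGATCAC
Cp A_43_P11448: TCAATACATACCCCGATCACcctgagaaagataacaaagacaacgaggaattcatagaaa
Cp A_44_P139939: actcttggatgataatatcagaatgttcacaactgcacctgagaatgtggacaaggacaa
Cp A_44_P459031: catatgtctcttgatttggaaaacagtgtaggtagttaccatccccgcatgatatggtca

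The ferritin probes included a near-identical pair for each chain. A pair of Ftl1 probes was placed at the same stretch, chr1:95929543-95929804 on the minus strand, a span of 262 bases for a 60-base probe. No rn4 annotation was used here, so exons and introns are not given for any probe. They differ at 4 bases (G7C, A9G, G10C and G11A, from the first line to the second, counted from the 5′ end). The Fth1 pair at chr1:212431850-212431909 and chr1:212431855-212431914 is shifted by 5 bases, and over the 55 bases in common the probes differ at 3 (C8T, G31A and A37G, counted from the 5′ end of the second). Capitals mark the bases that differ within a pair. Ferritin genes have many processed copies in mammalian genomes, and whether these probes bind such copies was not searched here.
Ftl1 A_44_P149190: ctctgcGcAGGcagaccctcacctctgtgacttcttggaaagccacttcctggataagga
Ftl1 A_42_P541034: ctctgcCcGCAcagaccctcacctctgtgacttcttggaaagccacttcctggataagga
Fth1 A_44_P351546: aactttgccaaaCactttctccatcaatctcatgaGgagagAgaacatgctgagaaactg
Fth1 A_44_P292634: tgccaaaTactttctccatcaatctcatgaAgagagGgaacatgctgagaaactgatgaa

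Of 43379 gene spots on each array, 53.5% to 54.2% in Cy3 and 62.9% to 63.2% in Cy5 were well above background, and no spot was saturated. Both arrays were on 1 slide. The labelled tissue was checked against 7 hepatocyte markers, and all 7 were well above background in both diets on both arrays. Of these, Apoa1, Tat and Ass1 rose and Alb fell in limma's test (57.1%, against 8.62% of all genes tested). The dye part of a gene was taken as its mean log2 ratio of Cy5 over Cy3 over both arrays, which cancels in the mean diet ratio. With 1 array per dye order, a dye effect cannot be told apart in it from a difference between the arrays. The dye part was larger in bright genes, with a median size of 0.16 in the brightest 1% (181 genes) against 0.07 in all genes tested. Of the members, 5 lay at or near this bright end, and Tf had a dye part of 0.66, exceeded in size by 3 of the 18196 genes. That of Hamp was 0.35 (58 genes larger) and that of Ftl1 0.31 (122 larger), against 0.02 for Cp. The arrays are therefore given apart for every member.

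**Figure D1:**
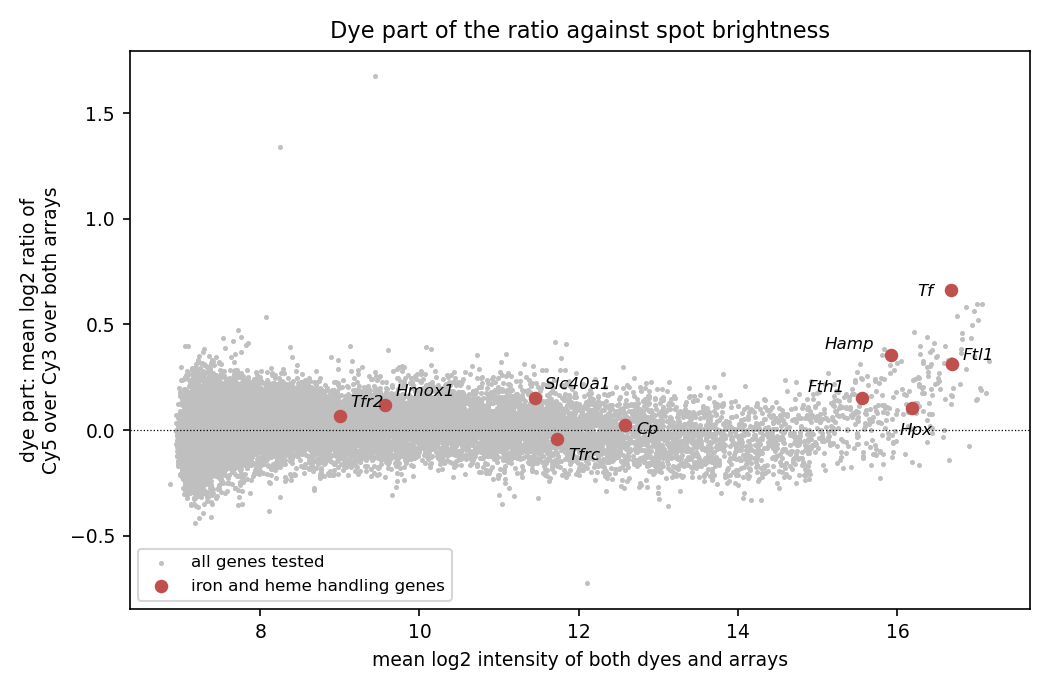
Dye part of each gene (vertical axis, mean log2 ratio of Cy5 over Cy3 over both arrays) against its mean log2 intensity (horizontal axis), with all 18196 genes tested in grey and the 10 iron and heme handling genes in red. Tf at 0.66, Hamp at 0.35 and Ftl1 at 0.31 sit in the upward bend of the brightest genes, while Cp at 0.02 lies near 0.

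Hepcidin and its sensor come first. For Hamp, the single probe (chr1:85978236-85978295) had normalized log2 levels of 16.22 and 15.77 in choline-deficient liver on arrays 1 and 2, against 15.72 and 15.97 in control liver. The diets overlapped, since choline-deficient liver was higher on array 1 and lower on array 2. The log2 ratio was 0.50 on array 1 and -0.21 on array 2, a mean of 0.15 ± 0.50 (SD, n = 2 arrays), and limma's adjusted p was 0.606 with a 95% interval from -0.07 to 0.37. Before normalization, the background-subtracted intensity of the Cy5 channel exceeded that of Cy3 on both arrays, whichever diet it held: 124762 in choline-deficient and 30083 in control liver on array 1, and 36236 in choline-deficient and 109614 in control liver on array 2. This order was not particular to Hamp. At the brightest Cp probe the intensity was 8080 in choline-deficient and 4332 in control liver on array 1. On array 2 these values were 3681 and 10615. Tfr2, the hepatocyte receptor that senses iron-loaded transferrin upstream of hepcidin (chr12:19651125-19651185), had levels of 8.99 and 8.83 in choline-deficient liver and 9.11 and 9.08 in control liver. Choline-deficient liver was lower on both arrays without overlap, by -0.12 and -0.26, but the mean of -0.19 ± 0.10 did not pass (adjusted p = 0.349).

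Hepcidin transcription is driven by BMP receptors through SMAD proteins and by interleukin-6 through STAT3. The 250 bases before the start of Hamp (chr1:95300272-95300521 of GRCr8, minus strand, RefSeq) are shown because both routes act on this promoter and their genes are counted below. In capitals are GGCGCC, the core of the BMP-responsive element, and TTCTTGGAA, which matches the STAT motif TTCNNNGAA. Both motifs read the same on either strand and do not overlap here. The first starts 129 and the second 117 bases before the start site. GGCGCC was present in 8.69% and TTCNNNGAA in 7.67% of the 33469 promoter windows of the same length. Of the 7 members with a window, Hamp and Tfrc held the first motif and Hamp the second.
Hamp promoter: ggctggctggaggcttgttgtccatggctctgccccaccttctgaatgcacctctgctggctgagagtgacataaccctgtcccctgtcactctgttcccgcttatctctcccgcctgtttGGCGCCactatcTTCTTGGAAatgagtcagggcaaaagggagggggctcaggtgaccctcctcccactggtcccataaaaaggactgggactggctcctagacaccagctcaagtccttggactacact

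Transferrin and its uptake receptor followed no common direction. Tf (chr8:108219377-108219436) had log2 levels of 16.86 and 16.19 in choline-deficient liver, against 16.49 and 17.14 in control liver. These are the widest swings among the members, with the diets overlapping and ratios of 0.37 on array 1 and -0.96 on array 2. Its mean log2 ratio of -0.29 ± 0.94 (SD, n = 2 arrays) did not pass (adjusted p = 0.197, 95% interval from -0.55 to -0.03). This interval is narrower than the gap between the arrays, since limma takes its spread mostly from all genes together. Tfrc, the transferrin receptor that brings iron into most cells, was measured by 3 probes. The brightest (chr11:69976628-69976687) had levels of 11.67 and 11.78 in choline-deficient liver and 11.73 and 11.75 in control liver. The diets overlapped and the mean ratio was -0.02 ± 0.06 (adjusted p = 0.985, 95% interval from -0.22 to 0.19). A second Tfrc probe was printed in 10 spots, whose log2 ratios had an SD of 0.05 on each array, and gave -0.01 on array 1 and -0.15 on array 2. The third, whose position spans 1655 bases for a 60-base probe, was dim and gave -0.32 and 0.01. None of the 3 passed when every kept probe was tested apart.

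Ferroportin and ceruloplasmin act together in iron export, since ceruloplasmin oxidises the iron that ferroportin releases. Slc40a1 (chr9:44977923-44977982) had levels of 11.57 and 11.32 in choline-deficient liver, against 11.42 and 11.48 in control liver. The diets overlapped, with ratios of 0.15 and -0.16 that cancelled to 0.00 ± 0.22 (adjusted p = 0.999, 95% interval from -0.21 to 0.20). Its second, dimmer probe gave -0.07 and -0.05.

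Cp separated the diets on both arrays. Its brightest probe, the first line printed above, had log2 levels of 12.41 and 12.35 in choline-deficient liver, against 12.80 and 12.78 in control liver. Both values of choline-deficient liver were below both of control liver, and the ratio was -0.39 on array 1 and -0.44 on array 2. The mean was -0.42 ± 0.03 (SD, n = 2 arrays), or 1.33-fold lower, with a limma adjusted p of 0.00273 and a 95% interval from -0.62 to -0.21. The probe in the other part of the gene gave -0.44 and -0.47, and the overlapping probe -0.42 and -0.41, and all 3 passed when each kept probe was tested apart (adjusted p from 0.00331 to 0.00775, against 7.18% of kept probes called in either direction and 3.63% called lower). The dim unmapped probe, well above background in choline-deficient liver on 1 of the arrays, gave 0.04 and -0.21 and did not pass. Averaged over all 4 probes, an alternative chosen after seeing the data, the gene was 1.27-fold lower (limma adjusted p = 0.0153). The call of Cp was lost with the deposited log ratio (mean -0.44, adjusted p = 0.352) and with median centring (mean -0.23, adjusted p = 1), settings under which limma called no gene of any kind. The log2 of the summed levels of the hepatocyte markers was 18.80 and 18.60 in choline-deficient liver and 18.63 and 18.92 in control liver. Their part in the fall of Cp was not tested. In whole liver RNA, fewer cells of a type and less RNA per cell cannot be told apart.

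**Figure D2:**
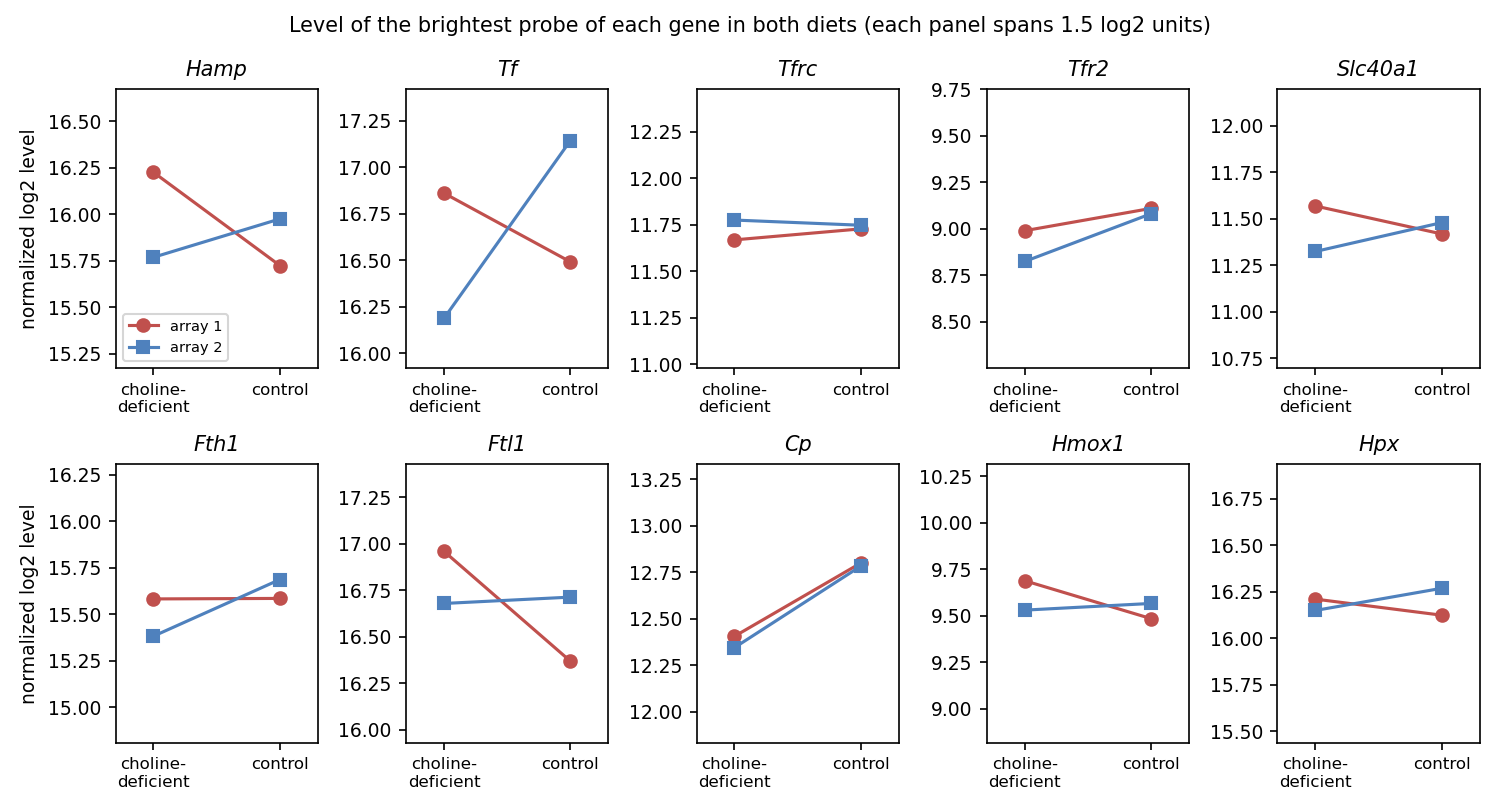
Normalized log2 level (vertical axis) of the brightest probe of each gene in choline-deficient liver (left) and control liver (right), with array 1 in red and array 2 in blue. The lines of Cp run in parallel from about 12.4 to 12.8, while those of Hamp and Tf cross.

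At its brightest probe neither chain of ferritin passed. Fth1, the heavy chain with ferroxidase activity, had levels of 15.58 and 15.38 in choline-deficient liver and 15.59 and 15.69 in control liver at its brighter probe. The diets barely separated, with a ratio of 0.00 on array 1, just below 0 before rounding, and -0.30 on array 2, and the mean of -0.15 ± 0.21 (SD, n = 2 arrays) did not pass (adjusted p = 0.528). The other Fth1 probe, 5 bases away, gave -0.10 and -0.25, and did not pass. With median centring the mean at the brighter probe was 0.01.

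Ftl1, the light chain that favours iron storage in the shell, was carried by 5 probes. Its brightest lies at chr1:95929216-95929261, a span of 46 bases for a 60-base probe. This probe had levels of 16.96 and 16.68 in choline-deficient liver, against 16.37 and 16.71 in control liver. The diets overlapped, with ratios of 0.59 and -0.03, and the mean of 0.28 ± 0.44 did not pass (adjusted p = 0.112, 95% interval from 0.06 to 0.49). The other 4 probes were higher in choline-deficient liver on both arrays. The pair that differs at 4 bases gave 0.61 and 0.18 for the first printed and 0.55 and 0.14 for the second, so that they differed by less than the arrays did. The probe at chr1:95929867-95930368 gave 0.48 and 0.29, and that at chr1:95930865-95930924 gave 0.24 and 0.29. When each kept probe was tested apart, 3 of the 5 passed (adjusted p of 0.0151, 0.0233 and 0.0487), against 3.54% of kept probes called higher. Averaged over its 5 probes, an alternative chosen after seeing the data, Ftl1 was 1.26-fold higher (0.33 ± 0.23, adjusted p = 0.0249), and with quantile normalization over the 4 channels its brightest probe passed too (0.38, adjusted p = 0.0132). In the authors' deposited log ratio, all 5 probes were higher in choline-deficient liver on both arrays, from 0.20 to 0.50 on array 1 and from 0.17 to 0.38 on array 2 on the log2 scale. Since probes of a gene share their RNA, they are not replicates of the diet.

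**Figure D3:**
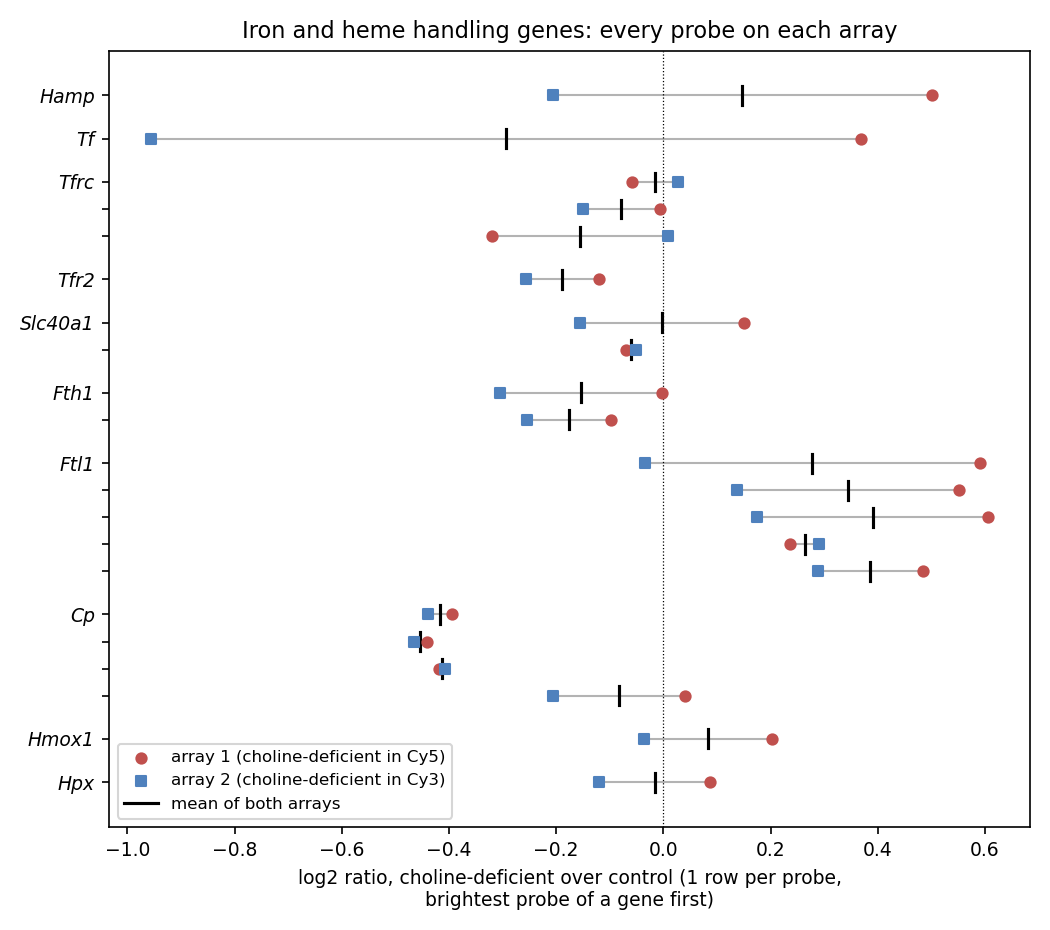
Log2 ratio of choline-deficient over control (horizontal axis) for each of the 21 probes of the 10 genes, with array 1 as red circles, array 2 as blue squares and their mean as a black bar. The 3 bright Cp probes sit near -0.4 on both arrays, the Ftl1 probes lie above 0 except for its brightest on array 2 (-0.03), and Tf spans from 0.37 to -0.96.

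Both heme genes lay close to 0 on average. Hmox1, the inducible heme oxygenase that opens the heme ring, was printed in 10 spots (chr19:13969336-13969395) with a spot SD of 0.07 and 0.05 on the log2 ratio. It had levels of 9.69 and 9.53 in choline-deficient liver and 9.49 and 9.57 in control liver. The diets overlapped, and the ratio was 0.20 on array 1 and -0.04 on array 2, a gap between arrays wider than the spread of spots within either. The mean of 0.08 ± 0.17 (SD, n = 2 arrays) did not pass (adjusted p = 0.834, 95% interval from -0.12 to 0.29). Hpx, the plasma protein that binds free heme (chr1:163319663-163319722), had levels of 16.21 and 16.15 in choline-deficient liver, against 16.12 and 16.27 in control liver. It too overlapped, with ratios of 0.09 and -0.12 and a mean of -0.02 ± 0.15 (adjusted p = 0.985, 95% interval from -0.22 to 0.19). Its sign turned under an offset of 16, quantile normalization and median centring.

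Across the members, 3 of 10 had the same sign on both arrays (Tfr2, Fth1 and Cp, all lower), against 56.4% of all genes tested. Lower on both arrays were thus 3 of 10 members against 27% of all genes, and higher on both 0 of 10 against 29.4%. These counts use each gene's brightest probe, and values at the edge of 0 decide some of them. Fth1 was at -0.0028 on array 1, and at 0.02 there with an offset of 16. The brightest Ftl1 probe was at -0.03 on array 2, while 4 of the 5 Ftl1 probes were higher on both arrays. On array 1, 4 of 10 members were lower in choline-deficient liver, and on array 2, 9 of 10. A positive dye part, which by its definition means a higher ratio on array 1 than on array 2, was present in 9 of the 10. The shares of all genes lower on each array, or with a positive dye part, were not counted. The counts for each array and for the dye part are therefore not read as a trait of the members. At least 1.5-fold in 1 direction on each array, no member was changed, a count by size with no test, against 1.35% of all genes.

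Other genes of iron and heme handling were counted from 4 lists, of which 69 genes were tested. In limma's test 4 rose and 4 fell, 11.6% against 8.62% of all genes tested, and the median log2 ratio was -0.03. Their values are given by role.

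Of 19 genes of hepcidin regulation, 2 rose and 1 fell (15.8%, against 8.62% of all genes tested), with a median of -0.06. Id1, an inhibitor of helix-loop-helix factors that BMP and SMAD signals induce (chr3:143087157-143087216), had log2 levels of 10.04 and 9.98 in choline-deficient liver, against 9.45 and 9.39 in control liver. It rose 1.51-fold (0.59 on each array, SD 0.00, limma adjusted p = 9.80e-06). Smad7, an inhibitory SMAD, rose 1.33-fold (0.37 and 0.45, adjusted p = 0.00353). Smad6, the other inhibitory SMAD in the list, had opposite signs on the arrays (-0.15 and 0.16) and did not pass (adjusted p = 0.995). Hamp had the opposite signs given above. Genes upstream of the SMAD proteins did not pass: Bmp2 was at -0.18 ± 0.12 (SD, n = 2 arrays), the co-receptor Hfe2 (now Hjv) at -0.16 ± 0.09, Hfe at 0.00 ± 0.12 and the protease Tmprss6, which cleaves hemojuvelin, at -0.12 ± 0.01. Bmp6 and Il6 were not well above background on both arrays in either diet, and were not tested. Il6st, the signal-transducing receptor chain of interleukin-6, fell by 0.36 on the log2 scale at its brightest probe (-0.29 and -0.44, adjusted p = 0.0111), but its other 2 kept probes had the opposite sign, and averaged over all 3 the gene was at -0.09 (adjusted p = 0.793). The call of Il6st was kept in 4 of 9 alternatives, those of Id1 and Smad7 in 7 of 9. Those 4 change the genes tested or the spread used and leave the ratio as it is. In every alternative that changed its ratio, the call of Il6st was lost. Stat3 was at -0.06 ± 0.16.

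Of 24 genes of iron uptake, storage and sensing, 2 rose and none fell (8.33%, against 8.62% of all genes tested), with a median of -0.04. Heph, hephaestin, the membrane-bound relative of ceruloplasmin with the same ferroxidase activity, rose 1.29-fold (0.40 and 0.34, limma adjusted p = 0.00967). Its probe was dim, with log2 levels of 7.80 and 7.71 in choline-deficient liver, against 7.40 and 7.37 in control liver, although well above background on both arrays in both diets. In the authors' deposited log ratio, Heph was at 0.86 on average, but did not pass (limma adjusted p = 0.299). Slc25a28, mitoferrin-2, which brings iron into mitochondria, rose 1.27-fold (0.37 and 0.33, adjusted p = 0.0162). Ncoa4, the cargo receptor that sends ferritin to lysosomes, was at -0.29 ± 0.19 (SD, n = 2 arrays) and did not pass (adjusted p = 0.0598). The iron regulatory proteins Aco1 (-0.12 ± 0.21) and Ireb2 (-0.02 ± 0.02) and the importers Slc11a2 (0.14 ± 0.12) and Slc39a14 (-0.05 ± 0.02) did not pass.

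Of 12 genes of heme synthesis, 1 fell and none rose (8.33%, against 8.62% of all genes tested), with a median of -0.02. It was Alad, which joins aminolevulinate into porphobilinogen in the second step of the pathway (chr5:79505653-79505712). Alad had log2 levels of 15.75 and 15.50 in choline-deficient liver, against 16.19 and 15.97 in control liver, and was 1.37-fold lower (-0.45 and -0.47, limma adjusted p = 0.000753). The rate-limiting liver enzyme Alas1 (0.15 ± 0.12, SD, n = 2 arrays) and ferrochelatase, Fech (0.04 ± 0.01), which inserts the iron, did not pass. Urod was at -0.18 ± 0.09. Alas2, the erythroid form of the first enzyme, was at -0.29 ± 0.27 and did not pass (adjusted p = 0.0709). Of 6 erythroid and blood markers tested, Alas2 included, all had a mean below 0 and Hbb-b1 fell. Their share called was 16.7%, against 8.62% of all genes tested. The log2 of their summed levels was 14.33 and 14.56 in choline-deficient liver, against 14.84 and 14.90 in control liver. This sum was mostly Hbb-b1 alone, at 14.24 and 14.49 against 14.78 and 14.84. The part of these markers in the values of heme genes was not tested.

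Of 14 genes of heme carriage and breakdown, 2 fell and none rose (14.3%, against 8.62% of all genes tested), with a median of -0.01. These were Hp, haptoglobin, which binds free haemoglobin, and Ambp, whose product includes the heme-binding alpha-1-microglobulin. Both were among the brightest spots and had opposite signs on the arrays, at 0.16 and -0.88 for Hp (limma adjusted p = 0.0449) and 0.18 and -1.01 for Ambp (adjusted p = 0.0218), so that on array 1 alone choline-deficient liver was higher. The call of Hp was kept in 1 of 9 alternatives and that of Ambp in 3 of 9. Lrp1, the receptor that takes up heme bound to haemopexin, was at -0.30 ± 0.14 (SD, n = 2 arrays) and did not pass (adjusted p = 0.0502). The other kept Lrp1 probe was at -0.07. Averaged over both probes, an alternative chosen after seeing the data, Lrp1 was at -0.19 (limma adjusted p = 0.322). It passed in 2 of 9 alternatives. The constitutive heme oxygenase Hmox2 (0.09 ± 0.05), the biliverdin reductases Blvra (0.04 ± 0.03) and Blvrb (0.03 ± 0.31), and the macrophage haemoglobin receptor Cd163 (-0.06 ± 0.11) did not pass. Of 8 Kupffer cell and macrophage markers, cells that also express Slc40a1 and Hmox1, Marco rose and the others did not pass. Their share called was 12.5%, against 8.62% of all genes tested, and their median was 0.05. The log2 of their summed levels was 14.51 and 14.67 in choline-deficient liver, against 14.81 and 14.70 in control liver. That sum was mostly Clec4f, at 14.00 and 14.19 against 14.46 and 14.32. Of 6 liver endothelial markers, cells that make BMP ligands, Kdr fell and the rest did not pass (16.7% called), with a median of -0.12. The log2 of their summed levels was 14.51 and 14.52 in choline-deficient liver, against 15.01 and 14.82 in control liver. Kdr made up most of that sum, at 14.26 and 14.28 against 14.84 and 14.62. The part of these cells in the values of members was not tested.

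**Figure D4:**
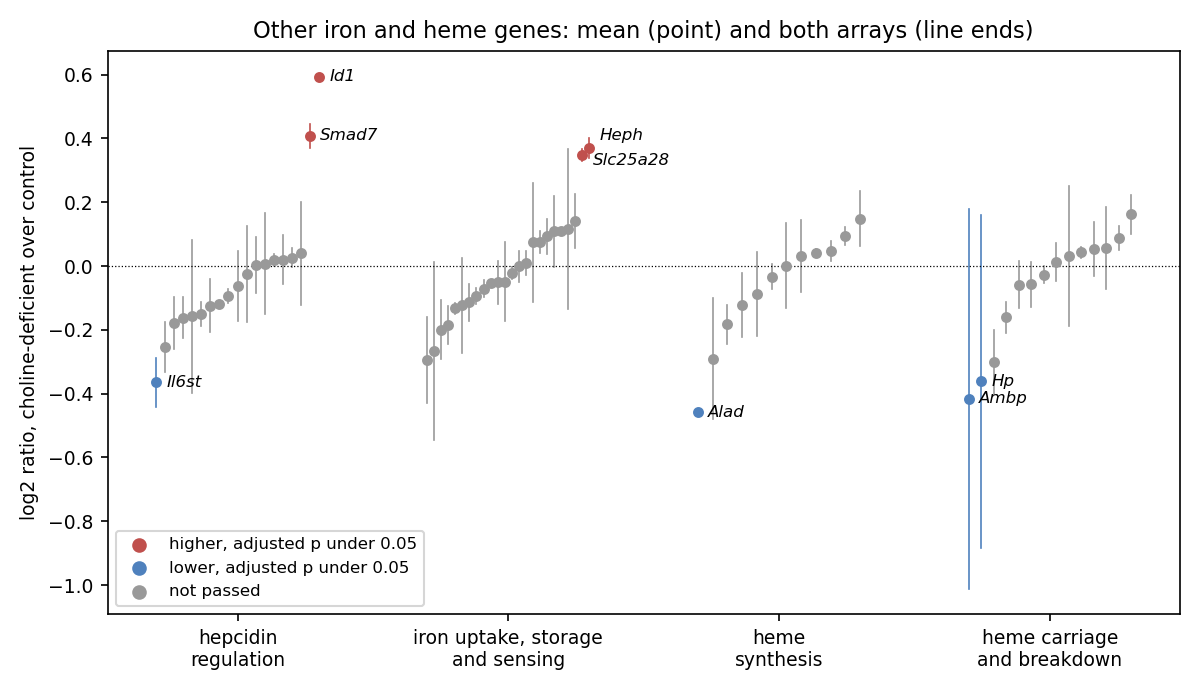
Mean log2 ratio of choline-deficient over control (vertical axis, points) of the 69 genes of 4 iron and heme lists, sorted within each list, with line ends at the values of the arrays. Genes that passed limma's test are red where higher and blue where lower. Id1, Smad7, Heph, Slc25a28 and Alad have short lines away from 0, while the lines of Hp and Ambp cross it.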

How the data were processed

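Per the labels, each array held liver RNA of both diets in Cy3 and Cy5. Per the file headers, spots were read by Agilent's Feature Extraction, version 9.5.3.1, and coordinates are rn4. The submitters' processing notes give version 9.5. The deposited spot and background intensity values are raw, and the deposited log10 ratio of Cy5 over Cy3 was background-subtracted, detrended and lowess-normalized by the authors, per the file headers. The series table equalled that log10 ratio row by row within 1% (45018 of 45018 rows on both arrays, median 0, Cy5 over Cy3) and was not used further.

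Mean signals were corrected by normexp with an offset of 50, which draws dim ratios towards 0, and each array was loess-normalized by itself, giving control spots a weight of 0 (limma 3.58.1, R 4.3.3). Spots called outliers (174 and 151) were dropped, and a probe's remaining spots averaged. Ratios were turned to choline-deficient over control. Probes well above background on both arrays in at least 1 diet were kept (22367), each gene taking its brightest probe (18196 genes). Means were tested against 0, two-sided, with lmFit and eBayes (1 residual and 63.3 prior degrees of freedom, Benjamini-Hochberg over all genes, threshold 0.05). The test thus leans mostly on the spread shared by all genes. Levels per diet were scaled by A-quantile. The number of arrays limits the precision. The limma test was first checked on simulated ratios, a check that did not cover the turning of dyes or the counts. Every value given comes from the arrays. Gene names are those of the files, and RefSeq sequences are of GRCr8.

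The members and lists were chosen with earlier results of these data known. Named were all members, every list gene past the threshold and the 3 of largest mean size in each list; other list genes were named for their role after their values were seen.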

Additional observations from a re-analysis of the deposited data

How the results depend on the processing

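Of the 10 members, 1 was called in the main setting and also under an offset of 16, without the filter on dim probes, with the stricter filter, with an intensity trend and, read at each gene's brightest probe, with every kept probe tested apart. By any called probe in that last fit, Ftl1 was called too. The count was 0 with the deposited log ratio, 0 with median centring, 0 at 1.5-fold on each array, and 2 with quantile normalization and with the mean over a gene's probes, where Ftl1 joined Cp. The mean over a gene's probes was an alternative chosen after seeing the data. Of the other iron and heme genes, 8 were called, against 5 with an offset of 16, 0 with the deposited log ratio, 0 with median centring and 5 with the mean over a gene's probes. It was 9 with quantile normalization, 6 without the filter on dim probes, 6 with every kept probe tested apart, 7 with an intensity trend and 8 with the stricter filter. The cause was not tested. Over all genes, limma called 1568 in the main setting and 0 with the deposited log ratio (2122 at an unadjusted p under 0.05) and 0 with median centring (19 at that level). The split of 795 higher and 773 lower became 989 and 616 with an intensity trend. Directions turned in members near 0. With median centring Tfrc was at 0.17, Slc40a1 at 0.19, Fth1 at 0.0114 and Hpx at 0.14. Hpx was at 0.0022 (adjusted p = 0.998) with an offset of 16 and at 0.0814 with quantile normalization, and Slc40a1 at 0.0134 with quantile normalization. Median centring leaves a brightness-dependent difference between the dye channels in place, and under it Cp was at 0.82 on array 1 and -1.28 on array 2. Over 9 alternatives, Cp ranged from -0.44 to -0.23 and Ftl1 from 0.28 to 0.43. Some alternatives leave the ratios of members and called list genes as in the main setting, and say little about processing. These are no filter on dim probes, the stricter filter, every kept probe tested apart and the intensity trend. With either array left out, which leaves a value and no test, Cp lay between -0.44 and -0.39, Ftl1 between -0.03 and 0.59, Hp between -0.88 and 0.16 and Ambp between -1.01 and 0.18. No paired analysis was possible because none is left to add beyond the main test, which already pairs the diets within each array.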
